A study of Mus musculus with 3 samples.

Results

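Resident cardiac macrophage genes are described here as a set of 10 genes among the 32285 genes of a spatial transcriptome dataset of the mouse heart. The rule that defines the set lists genes by name. It holds the scavenger and uptake receptors Lyve1, Cd163, Mrc1, Folr2 and Timd4, the enzyme and coagulation factor genes Cbr2 and F13a1, and the general macrophage genes Adgre1, Csf1r and Ms4a7. All 10 are annotated as protein-coding genes. The first 7 are called the resident genes below, and the last 3 the general genes. These names are labels of the groups, and the 7 did not all behave alike. The dataset consists of Visium libraries. In this assay frozen tissue slices are placed on barcoded spots that capture the transcripts above them, and each spot can cover a few cells of more than 1 type. There was 1 section for each of 3 groups of C57BL/6 mice, which were 8 weeks old. The sham mouse received vehicle by gavage for 7 days and then surgery with needles but no ligation. The I/R mouse received the same vehicle and then 30 min of ligation of the left anterior descending coronary artery followed by 24 h of reperfusion. The SBP mouse received Shexiang Baoxin Pill (labelled MUSKARDIA), a pill of traditional Chinese medicine, by gavage for 7 days before the same ischemia and reperfusion. The sections therefore address where genes of resident macrophages lie after 24 h of reperfusion, and whether their levels differ with SBP pretreatment.

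The healthy heart holds macrophages that are seeded before birth and renew themselves in place. They take up debris, dying cells and iron-bearing hemoglobin, support conduction and the vessels, and depend on signals through the receptor Csf1r. After ischemic injury, neutrophils and then Ccr2-bearing monocytes enter from the blood, and monocyte-derived macrophages become numerous beside the resident ones. Lyve1, Folr2 and Timd4 are widely used to tell resident macrophages from recently recruited ones, whereas Adgre1 (F4/80) and Csf1r are carried by both. No gene of the set is exclusive to these cells. Lyve1 is also a hyaluronan receptor of lymphatic endothelium, Mrc1 is found on some endothelium, and F13a1 is also made by monocytes and platelets.

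The promoters of 4 members are shown because these genes spanned the patterns described below. In the I/R section, spots high in 4 injury genes were low in Cd163, high in Mrc1 and Ms4a7, and little different from the rest in Folr2. That division of spots was settled after the data were seen. Under the planned division by Ankrd1, also described below, Mrc1 was only at 0.19 on the log2 scale and Folr2 at -0.34. Each run is 300 bases of RefSeq sequence (GRCm38.p6), from 250 bases before to 50 bases after a start of the gene, written 5′ to 3′ along the strand of the gene. Capitals mark the letters AGGAAGT, a core bound by the myeloid factor PU.1, and TGCTGA, a MAF half-site, each searched on both strands. The Cd163 window is chr6:124304401-124304700 on the plus strand, the Folr2 window chr7:101857141-101857440 on the minus strand, the Mrc1 window chr2:14229164-14229463 on the plus strand and the Ms4a7 window chr19:11336097-11336396 on the minus strand.
Cd163: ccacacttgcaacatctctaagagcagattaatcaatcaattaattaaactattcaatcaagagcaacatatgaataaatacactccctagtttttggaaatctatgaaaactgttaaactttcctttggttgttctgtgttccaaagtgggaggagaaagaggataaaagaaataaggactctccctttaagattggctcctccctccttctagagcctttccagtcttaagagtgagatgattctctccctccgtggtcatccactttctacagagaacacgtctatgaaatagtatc
Folr2: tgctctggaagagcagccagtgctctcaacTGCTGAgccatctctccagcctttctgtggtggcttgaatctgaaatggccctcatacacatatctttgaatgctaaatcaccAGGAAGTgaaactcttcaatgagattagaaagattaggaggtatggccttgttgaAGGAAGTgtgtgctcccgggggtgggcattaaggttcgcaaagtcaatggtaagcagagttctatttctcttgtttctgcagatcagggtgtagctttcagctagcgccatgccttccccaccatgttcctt
Mrc1: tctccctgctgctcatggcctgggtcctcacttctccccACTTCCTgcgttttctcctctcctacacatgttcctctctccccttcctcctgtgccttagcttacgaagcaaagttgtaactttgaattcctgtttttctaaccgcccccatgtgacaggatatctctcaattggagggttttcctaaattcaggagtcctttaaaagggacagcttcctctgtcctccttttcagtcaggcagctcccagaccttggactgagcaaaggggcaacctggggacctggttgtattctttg
Ms4a7: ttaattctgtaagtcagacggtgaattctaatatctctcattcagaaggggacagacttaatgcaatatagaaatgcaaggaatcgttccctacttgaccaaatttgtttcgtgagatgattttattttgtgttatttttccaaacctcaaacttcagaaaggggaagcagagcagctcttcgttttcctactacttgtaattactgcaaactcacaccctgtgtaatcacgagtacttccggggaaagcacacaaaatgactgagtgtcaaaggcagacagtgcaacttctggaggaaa
The Folr2 window held the PU.1 core at 2 places and the MAF half-site at 1, and the Mrc1 window held the PU.1 core once on the opposite strand. The Cd163 and Ms4a7 windows held neither run of letters. Folr2 and Ms4a7 each had another window that is not printed. That of Folr2 held the MAF half-site once and no PU.1 core, and that of Ms4a7 held neither. RefSeq windows were at hand for 7 of the 10 members, 10 windows in all, and Lyve1, Adgre1 and Csf1r had none. The PU.1 core was in 3 of the 10 windows, against 9.35% of 32851 windows of the same length over all genes, and the MAF half-site was in 4, against 19.5%. The 4 windows with the MAF half-site came from 3 members. These matches describe the letters and are not evidence of binding.

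The kept spots numbered 2234 in sham, 2082 after I/R and 1960 with SBP, with 21631280 to 30238530 UMIs (unique molecular identifiers, here counts of captured transcripts) per section. The median spot was deeper in I/R (14672 UMIs) than in sham (10645) or SBP (10652.5). Levels are therefore given per 1000000 UMIs of the section (CPM), and all intervals are at the 95% level and cover counting error only. With 1 section per group there is no replicate, no test and no p-value between groups, and differences between mice or cutting planes cannot be told apart from the treatment. A lower level can come from fewer cells, from less RNA per cell or from more RNA of other cells, since CPM is a share. These cannot be told apart in spots. Barcodes are positions on the slide, and 1093 of them were in use in all 3 sections. The whole profile of the I/R section was shifted. Over all genes with at least 50 UMIs in a pair of sections, the median log2 ratio was 0.24 for I/R over sham (12231 genes). It was -0.17 for SBP over I/R (12151 genes) and 0.08 for SBP over sham (11768 genes). Values relative to this median are given where they matter.

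The section-wide levels separated the set into genes that were lower after I/R than in sham and genes that were higher. Cd163, the receptor for hemoglobin bound to haptoglobin, had 7.25 CPM in sham (6.23 to 8.38), 4.96 after I/R (4.20 to 5.82) and 5.69 with SBP (4.73 to 6.78). Sham was highest, and the SBP interval overlapped those of both sham and I/R. Lyve1 had 11.3 CPM in sham (9.99 to 12.7), 9.06 after I/R (8.02 to 10.2) and 8.78 with SBP (7.58 to 10.1). The order was the same for Folr2, a folate receptor, with 18.2 CPM in sham (16.6 to 20.0), 14.6 after I/R (13.3 to 16.0) and 13.7 with SBP (12.2 to 15.3). For both genes I/R and SBP lay within each other's intervals. For Lyve1 the sham interval also overlapped those of I/R and SBP. Timd4, a receptor for phosphatidylserine on dying cells, was rare, with 47 UMIs in sham, 36 after I/R and 34 with SBP, which is 1.87, 1.19 and 1.57 CPM. Its 3 intervals overlapped. Mrc1, the mannose receptor CD206, behaved differently, with 40.7 CPM in sham (38.3 to 43.3), 44.7 after I/R (42.4 to 47.2) and 30.2 with SBP (27.9 to 32.6). SBP was the lowest section for Mrc1, below the intervals of both others.

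**Figure D1:**
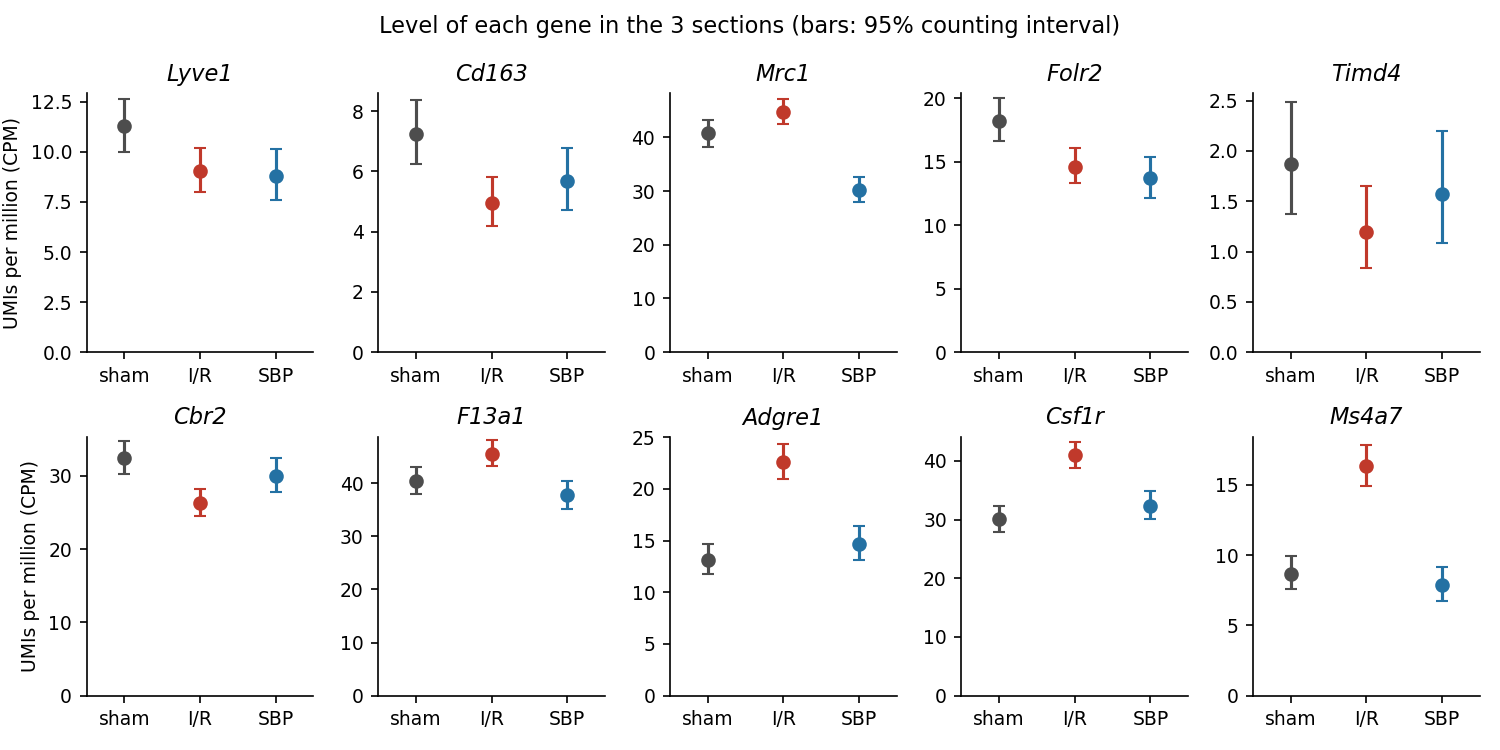
Level of each of the 10 genes in UMIs per 1000000 UMIs (CPM, linear axis from 0) in the sham, I/R and SBP sections, with 95% Poisson intervals of the UMI sums as bars. Adgre1 and Ms4a7 were highest in I/R at 22.6 and 16.3 CPM, whereas Cd163 and Folr2 were highest in sham at 7.25 and 18.2 CPM.

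Of the enzyme and factor genes, Cbr2, a carbonyl reductase, had 32.5 CPM in sham (30.3 to 34.8), 26.3 after I/R (24.5 to 28.2) and 30.0 with SBP (27.8 to 32.5). Its I/R interval lay below that of sham and overlapped that of SBP. F13a1, the A chain of coagulation factor XIII, had 40.4 CPM in sham (38.0 to 43.0), 45.6 after I/R (43.2 to 48.0) and 37.7 with SBP (35.1 to 40.4). The 3 general genes were all highest in I/R. Adgre1 had 13.1 CPM in sham (11.8 to 14.6), 22.6 after I/R (21 to 24.4) and 14.7 with SBP (13.1 to 16.4). Csf1r, the receptor for the growth factors Csf1 and Il34, had 30.1 CPM in sham (28.0 to 32.3), 40.9 after I/R (38.7 to 43.3) and 32.4 with SBP (30.0 to 34.8). Ms4a7, a membrane protein of mature macrophages, had 8.68 CPM in sham (7.57 to 9.91), 16.3 after I/R (14.9 to 17.8) and 7.86 with SBP (6.72 to 9.13). For each of these 3 genes the I/R interval lay above the other 2, and those of sham and SBP overlapped. Summed, the 7 resident genes had 152 CPM in sham, 146 after I/R and 128 with SBP, and the 3 general genes 51.9, 79.9 and 54.9. Mrc1 and F13a1 held 1023 and 1015 of the 3824 UMIs of the 7 genes in sham. They held 1353 and 1378 of 4428 after I/R, and 653 and 815 of 2761 with SBP. Sums of the 7 therefore rest mostly on Mrc1 and F13a1.

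In the comparison of the I/R section with the sham section, the 3 general genes lay above 0. Below it lay 5 members, all of them resident genes. On the log2 scale of the CPM ratio, Ms4a7 was at 0.91 (0.68 to 1.15), Adgre1 at 0.78 (0.59 to 0.98) and Csf1r at 0.45 (0.31 to 0.58). Lyve1, Folr2 and Cbr2 lay close together at -0.31 (-0.56 to -0.07), -0.32 (-0.51 to -0.13) and -0.31 (-0.45 to -0.16). Cd163 was at -0.55 (-0.87 to -0.23), and Timd4 at -0.65 with an interval that reached 0.0048. Mrc1 at 0.14 and F13a1 at 0.17 were slightly above 0, and this direction turned with median-of-ratios size factors, to -0.10 and -0.06. With equal weight per spot they were at 0.40 and 0.47. At least 1.5-fold higher were 2 of the 10 members, Adgre1 and Ms4a7, against 23.2% of all genes tested. With median-of-ratios size factors only Ms4a7 stayed past that fold, at 0.68, whereas Adgre1 was at 0.55. With equal weight per spot Csf1r passed it as well, at 0.79. At least 1.5-fold lower was 1 member, Timd4, against 3.49% of all genes. Relative to the median of all genes, Ms4a7 was at 0.67, Adgre1 at 0.54 and Csf1r at 0.20, while F13a1 and Mrc1 were below it at -0.07 and -0.11. Timd4 was at -0.89 on that scale, Cd163 at -0.79, and Lyve1, Folr2 and Cbr2 were at -0.56, -0.56 and -0.55. The sum of the 7 resident genes was at -0.06 (-0.12 to 0.01), while that of the 3 general genes was at 0.62 (0.53 to 0.72).

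Other macrophage genes were examined by list. Of 12 further genes linked to resident macrophages with at least 50 UMIs, 1 was at least 1.5-fold higher in I/R (Ccl24, a chemokine, at 0.72) and none was lower by that fold. Their median was 0.13, against 0.24 for all genes. Of the 12, 7 were above 0 and 5 below it. The lowest were Ltc4s at -0.57 (-0.85 to -0.28) and Fcna at -0.50 (-0.94 to -0.05). The 4 with most UMIs were the selenium carrier Selenop at -0.27, the scavenger receptor Stab1 at 0.40, the ligand Gas6 at 0.03 and the transcription factor Maf at 0.46. Of 17 other genes listed for macrophages as a whole, called the shared macrophage genes below, 12 were higher by that fold and none lower. Their median was 1.17. The complement genes C1qa at 0.18 and C1qb at 0.32 stood near the lower end of that list, and Lyz2, a lysozyme of all myeloid cells, was at 1.3 and the lysosomal protease Lgmn at 1.26. Of 5 ligand and receptor genes of the Csf1 and Csf2 families, Csf1r among them, 3 were higher, with Csf1 itself at 0.70 and the alternative ligand Il34 at -0.38 on 60 to 65 UMIs a section. All 4 measured class II antigen presentation genes were higher, with a median of 0.76. Genes listed for recruited monocytes, called monocyte genes below, were higher by far more, 12 of 12 with a median of 2.13. They ranged from Vcan at 0.93 to Arg1 at 3.66. Among them were Ccr2 at 2.01, Ly6c2 at 2.82, Chil3 at 3.12, Plac8 at 1.73, Fn1 at 2.19, Spp1 at 2.10, Ccl2 at 2.17, Ccl7 at 2.04, Thbs1 at 2.38 and Itgam at 1.5. Which cells made the transcripts of this list was not tested. All 8 neutrophil genes were higher, with a median of 2.69.

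**Figure D2:**
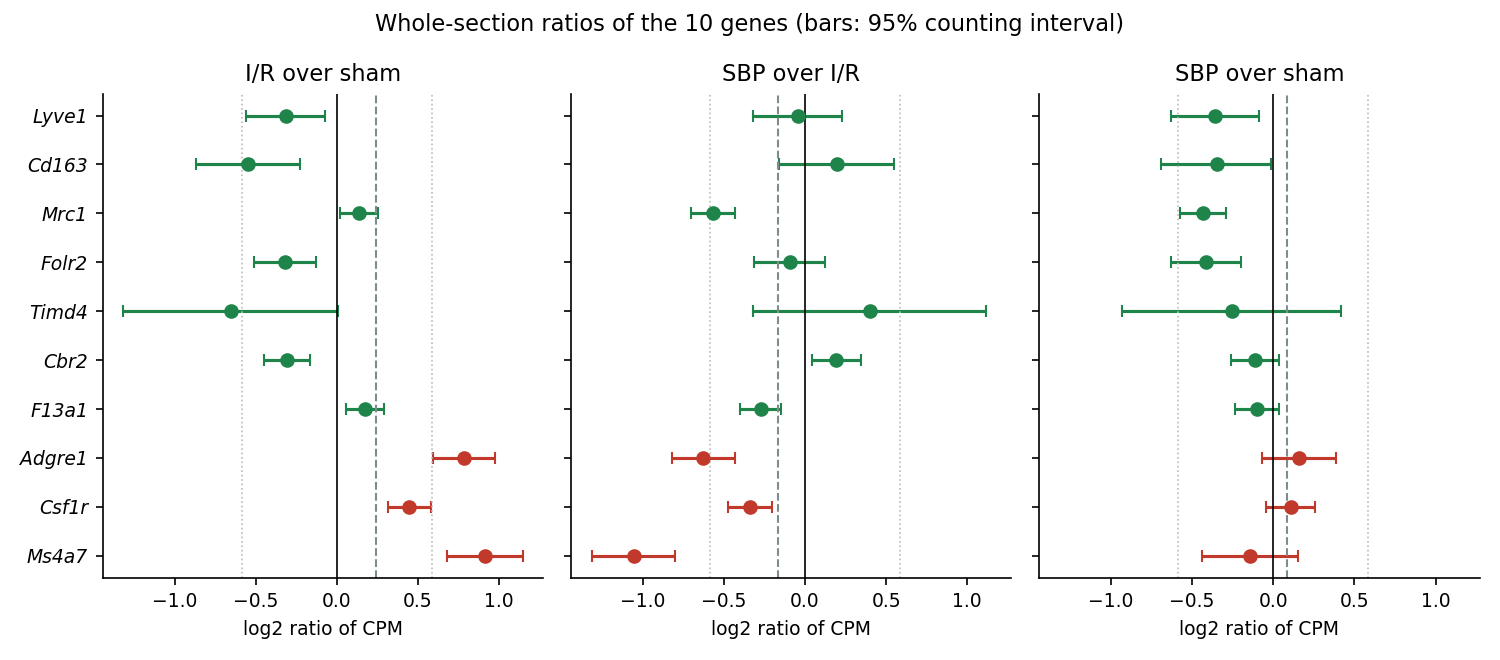
Log2 ratio of CPM for the 10 genes in I/R over sham, SBP over I/R and SBP over sham, with 95% conditional binomial intervals as bars (green, resident genes; red, general genes). The dashed line is the median of all genes tested, and dotted lines mark a fold of 1.5. The general genes lay right of the dashed line for I/R over sham (0.45 to 0.91) and left of it for SBP over I/R (-1.06 to -0.34).

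In the comparison of SBP with I/R, which asks how the pretreated heart differed, the general genes, Mrc1 and F13a1 were lower, and the other resident genes differed less or had intervals that held 0. This comparison shares the I/R section with the one above, and its values are therefore set side by side only. Ms4a7 was at -1.06 (-1.32 to -0.80), Adgre1 at -0.63 (-0.82 to -0.43) and Csf1r at -0.34 (-0.48 to -0.20). Mrc1 was at -0.57 (-0.70 to -0.43) and F13a1 at -0.27 (-0.40 to -0.15). Cbr2 was at 0.19 (0.04 to 0.34), and for Cd163 (0.20), Timd4 (0.40), Lyve1 (-0.04) and Folr2 (-0.10) the interval held 0. Relative to the median of all genes, -0.17 for this pair, F13a1 was only at -0.11 and Csf1r at -0.17. Ms4a7 was at -0.89, Adgre1 at -0.46 and Mrc1 at -0.40 on that scale. Lyve1 was at 0.12, Folr2 at 0.07, Cbr2 and Cd163 at 0.36 and Timd4 at 0.57. The sum of the 7 resident genes, at -0.20, was at -0.03 relative to the median. At least 1.5-fold lower were 2 of the 10 members, Adgre1 and Ms4a7, against 13.8% of all genes, and 0 were higher by that fold, against 1.95%. The Adgre1 value no longer reached that fold without mitochondrial UMIs (-0.57) or with median-of-ratios size factors (-0.46). With equal weight per spot Adgre1 was at -0.82, and Mrc1 passed that fold too, at -0.77. Of the other lists, the 17 shared macrophage genes had 12 lower and none higher, with a median of -0.82. The monocyte genes had 11 of 12 lower with a median of -1.10, and the exception was Plac8 at -0.36. The further resident genes had 0 of 11 past that fold in either direction, with a median of -0.10.

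In the comparison of SBP with sham, 0 of the 10 members were at least 1.5-fold higher, against 5.31% of all genes, and 0 were lower by that fold, against 2.77%. The 5 scavenger and uptake receptors all had a ratio below 0. Mrc1 was at -0.43 (-0.58 to -0.29), Folr2 at -0.41 (-0.63 to -0.20), Lyve1 at -0.36 (-0.63 to -0.09) and Cd163 at -0.35 (-0.69 to -0.01). Timd4 was at -0.25 with an interval that held 0 (-0.93 to 0.42). For Cbr2 (-0.11), F13a1 (-0.10) and the 3 general genes (-0.14 to 0.16) the intervals held 0 as well. The 12 monocyte genes were still above sham in SBP, 8 of them by at least 1.5-fold and none lower, with a median of 0.95. Of 12 further resident genes, 1 was higher by that fold (Ccl24 at 0.93) and 2 were lower (Fcna and Ltc4s, both at -0.60). Their median was -0.16.

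The share of spots with a transcript was compared after each spot was thinned to 6500 UMIs, which left 2102, 1880 and 1747 spots in sham, I/R and SBP and removed 132, 202 and 213 shallower ones. A UMI of any of the 7 resident genes was found in 48.1% of thinned spots in sham (46.0 to 50.3), 47.2% after I/R (44.9 to 49.5) and 43.8% with SBP (41.4 to 46.2). For the 3 general genes the shares were 24.8%, 32.8% and 25.0%. At equal depth Ms4a7 was in 4.71% of spots in sham (3.84 to 5.70), 9.57% after I/R (8.28 to 11) and 4.01% with SBP (3.14 to 5.04). Lyve1 was in 6.14% of spots in sham (5.15 to 7.25), 4.26% after I/R (3.39 to 5.27) and 5.09% with SBP (4.11 to 6.23). In 19 further draws of the thinning the Lyve1 share after I/R was 4.63 to 5.48%, above the value given here in every draw. These draws overlapped those of SBP, at 4.75 to 5.90%, and lay below those of sham, at 5.80 to 7.14%. Mrc1 was in 18.7%, 21.1% and 14.8% of spots, and Cd163 in 4.19%, 3.35% and 3.26%. Of the others, Adgre1 (6.85%, 11.6% and 7.50%) and Csf1r (16.3%, 20.7% and 16.9%) were in a larger share of spots after I/R than in the others, and Cbr2 (15.2%, 13.8% and 15.2%), F13a1 (18.7%, 20.2% and 18.7%) and Timd4 (1.09%, 0.851% and 0.916%) differed little. The F13a1 share in sham was 19.2 to 21% in the further draws, above the value given. Without thinning the shares also carried depth, as for Folr2, which went from 9.94%, 8.72% and 7.84% of thinned spots to 15.4%, 16.4% and 12.7% of all spots. Unthinned shares were 10.5%, 9.89% and 7.81% for Lyve1, 6.94%, 6.20% and 5.36% for Cd163, 27.4%, 35.8% and 23.2% for Mrc1 and 7.88%, 16.6% and 6.38% for Ms4a7. The member UMIs were spread out, since no spot held more than 13 of any 1 member. As a guide to stray transcripts, Ins2 of the pancreas and Krt5 of the skin had 0 UMIs in every section, where 3 UMIs would be 0.0992 to 0.139 CPM, and Prm1 and Gfap had 0 to 4. Timd4, the rarest member, was above these genes at 34 to 47 UMIs. Other genes of the same list were not near 0. The liver gene Alb had 11 UMIs in sham, 446 after I/R and 89 with SBP. In the same order Apoa2 had 41, 193 and 63, and Cdh16 had 52, 40 and 19. Timd4 was thus not above every gene of other organs.

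Set against complement C1q, made by nearly all tissue macrophages, the resident genes as a sum were lower in I/R than in sham. For Mrc1 and F13a1, which held most UMIs of that sum, the intervals of sham and I/R overlapped. Per 100 UMIs of C1qa, C1qb and C1qc together, the 7 resident genes had 43.6 UMIs in sham (42.0 to 45.3), 35.4 after I/R (34.2 to 36.7) and 39.2 with SBP (37.5 to 41.0). The 3 general genes had 14.9, 19.3 and 16.9. Cd163 had 2.08 UMIs per 100 in sham (1.78 to 2.40), 1.20 after I/R (1.01 to 1.41) and 1.75 with SBP (1.45 to 2.09). Cbr2 had 9.31 in sham, 6.36 after I/R and 9.24 with SBP, so that I/R stood apart from both others. Folr2 had 5.22, 3.53 and 4.21, and Lyve1 3.23, 2.19 and 2.70. Mrc1 (11.7, 10.8 and 9.28) and F13a1 (11.6, 11 and 11.6) differed less. The choice of reference mattered for both groups of genes. Per 100 UMIs of Cd68, Aif1, Lgmn and Ctss, the 7 resident genes had 111 UMIs in sham, 43.5 after I/R and 73.4 with SBP, and the log2 ratio of I/R over sham was -1.36 in place of -0.30 per C1q. F13a1 had 29.6, 13.5 and 21.7 and Mrc1 29.8, 13.3 and 17.4, so that both differed more than per C1q and Mrc1 was higher with SBP than after I/R. For the general genes the order of sham and I/R was the opposite of that per C1q. Their sum had 38, 23.7 and 31.6, and Ms4a7 had 6.35, 4.85 and 4.52 against 2.49, 3.95 and 2.42 per C1q. On the log2 scale of I/R over sham, Adgre1 was at -0.52 and Csf1r at -0.85.

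Ankrd1, a gene induced in stressed cardiomyocytes, was used to divide the spots of each section. A spot was called Ankrd1-high above 26.96 Ankrd1 UMIs per 10000, the 95th percentile of sham spots, which gave 112 spots in sham, 479 after I/R (23.0%) and 326 with SBP (16.6%). These spots were deeper than the rest, with medians of 14927, 17348 and 11989.5 UMIs against 10501.5, 14103 and 10453. Of the 9 members with at least 50 UMIs, Cd163 had the lowest ratio in I/R and in SBP. In I/R it had 14 UMIs in Ankrd1-high spots and 136 elsewhere, which is 1.71 CPM (0.937 to 2.87) against 6.16 (5.17 to 7.29). In SBP it had 3.06 CPM (1.58 to 5.35) against 6.27 (5.16 to 7.55), and in sham 5.42 (2.60 to 9.97) against 7.39 (6.33 to 8.58). The log2 ratios of high over other spots were -0.45 in sham (-1.53 to 0.47), -1.85 after I/R (-2.76 to -1.05) and -1.03 with SBP (-2.03 to -0.17). With the threshold at the sham 90th percentile the sham value of Cd163 was 0.11. Lyve1 was lower as well, at -0.50 in sham (-1.36 to 0.25), -0.63 after I/R (-1.09 to -0.19) and -0.91 with SBP (-1.66 to -0.24). Folr2 was at -0.18, -0.34 (-0.68 to -0.01) and -0.68 (-1.22 to -0.17), and Cbr2 at -0.08, -0.50 (-0.76 to -0.25) and -0.42 (-0.76 to -0.10). Timd4 had 2 UMIs in Ankrd1-high spots of sham, 4 in those of I/R and 1 in those of SBP, too few to compare.

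**Figure D3:**
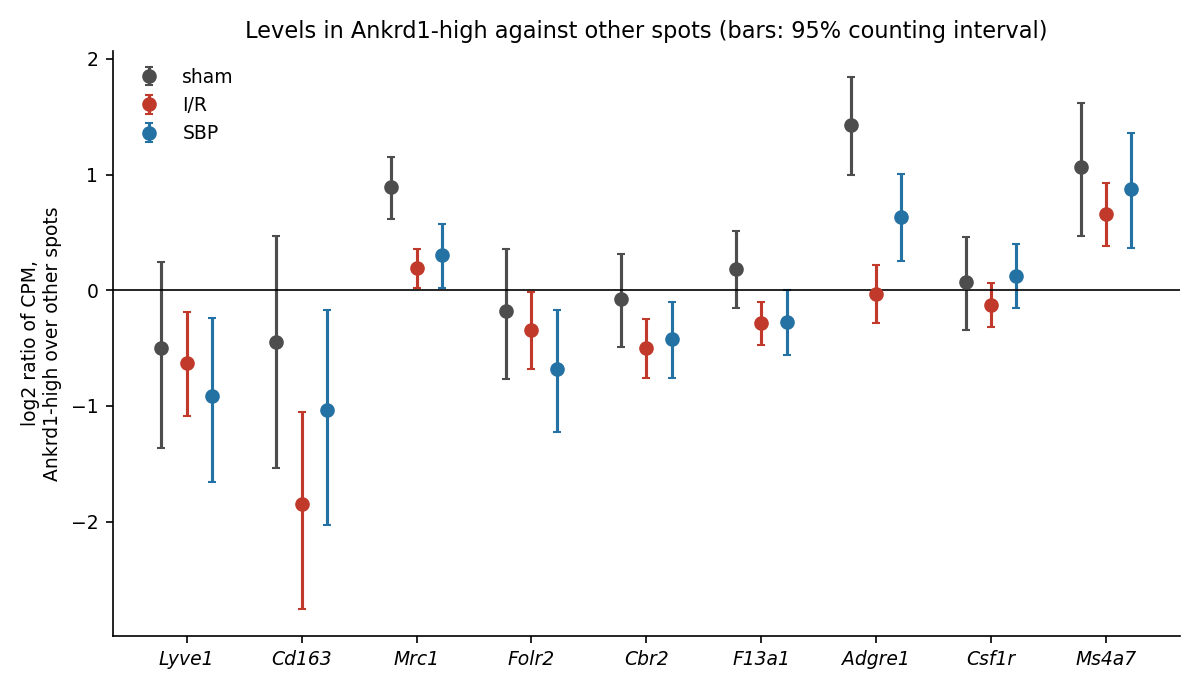
Log2 ratio of CPM in Ankrd1-high over other spots of the same section for 9 genes (Timd4 is left out for too few UMIs), with 95% conditional binomial intervals as bars, in sham, I/R and SBP. Cd163 and Lyve1 lay below 0 in every section, but in sham their intervals held 0. Cd163 was at -1.85 in I/R, and Ms4a7 lay above 0 in every section at 0.66 to 1.06.

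Ms4a7 was higher in Ankrd1-high spots in each section, at 1.06 in sham (0.47 to 1.62), 0.66 after I/R (0.38 to 0.92) and 0.87 with SBP (0.36 to 1.36). With the threshold at the sham 99th percentile the value in SBP was -0.0081. In I/R the level was 22.3 CPM (19.2 to 25.8) against 14.1 (12.6 to 15.8). Adgre1 was at 1.43 in sham (0.99 to 1.84), at -0.03 after I/R (-0.28 to 0.22) and at 0.63 with SBP (0.25 to 1.0). Mrc1 was at 0.89 in sham (0.61 to 1.16), 0.19 after I/R (0.02 to 0.36) and 0.30 with SBP (0.02 to 0.58). Csf1r was near 0 in all 3 (0.07, -0.12 and 0.12), and F13a1 was at 0.19, -0.29 (-0.47 to -0.10) and -0.27, where the last interval held 0. Of the 9 members with at least 50 UMIs, 3 were at least 1.5-fold higher in sham and 0 lower, against 28.3% and 6.08% of all genes. In I/R 1 was higher and 2 were lower, against 13.6% and 3.88%. In SBP 2 were higher and 3 were lower, against 16.6% and 5.02%. The median of all genes was itself above 0, at 0.31 in sham, 0.24 after I/R and 0.21 with SBP.

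The levels of other gene lists in the Ankrd1-high spots differed between sections. Monocyte genes were at least 1.5-fold higher there in 11 of 11 measured genes in sham, with a summed level of 782 CPM against 237. In I/R this held for 1 of 12 (1357 against 1166 CPM) and in SBP for 9 of 12 (725 against 434 CPM). Neutrophil genes had 4 of 4 higher in sham, 0 of 7 in I/R and 6 of 6 in SBP. Cardiomyocyte genes had a summed level of 20035 against 27041 CPM in sham, 16846 against 21564 in I/R and 19009 against 24058 in SBP. Of the monocyte genes, Spp1 and Fn1 held the most UMIs in the I/R section, at 13780 and 6938. Which cells made the transcripts of these lists, and their part in the member values, was not tested.

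Within the Ankrd1-high spots, the 7 resident genes together were lower in I/R than in sham by -0.46 on the log2 scale (-0.64 to -0.28), at 130 against 178 CPM. Cd163 was at -1.66 (-2.94 to -0.33) on 14 and 10 UMIs, Cbr2 at -0.61 (-1.06 to -0.15) and Mrc1 at -0.53 (-0.82 to -0.23). With the threshold at the sham 99th percentile, which leaves 23 sham spots, the sum of the 7 turned to 0.37 and Cbr2 to 0.98. Within the other spots, the sum of the 7 was at 0.02 (-0.05 to 0.09), while Adgre1 was at 0.96 (0.75 to 1.18) and Ms4a7 at 0.82 (0.55 to 1.08). For SBP over I/R, the sum of the 7 was at -0.25 (-0.42 to -0.09) in Ankrd1-high and at -0.21 (-0.29 to -0.14) in other spots. These values are not set against a median of all genes, which was -0.17 for the whole sections of this pair. For the same pair of sections Ms4a7 was below 0 in both classes, at -0.83 (-1.32 to -0.37) and -1.05 (-1.36 to -0.74), whereas Adgre1 was at -0.77 (-1.0 to -0.55) in the other spots and at -0.11 (-0.50 to 0.28) in Ankrd1-high spots. When spots were divided by injury genes instead (below), I/R over sham in the other spots was at -0.28 for the sum of the 7, -0.23 for Mrc1, 0.23 for Adgre1 and -0.05 for Ms4a7. For SBP over I/R, the sum of the 7 there was at 0.04, the sum of all 10 members at 0.012, Adgre1 at -0.25 and Ms4a7 at -0.23.

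A division by genes of injured stroma gave a picture that Ankrd1 did not. Spots were binned by the summed UMIs of Timp1, Ccn2, Tnc and Postn per 10000, a set of 4 genes settled after the data were seen, with bin edges at the 50th, 80th and 95th percentiles of sham. The highest bin held 112 spots in sham, 796 after I/R (38.2%) and 352 with SBP (18.0%), and 364 of the 796 in I/R were also Ankrd1-high. In I/R, Ms4a7 had 3.71 CPM in the lowest bin and 5.71, 12.3 and 33.4 (30.0 to 37.0) in the next 3. Csf1r went from 22.3 to 65.4 CPM, F13a1 from 21.3 to 72.9 and Mrc1 from 17.6 to 69.8. Each of these 4 genes was higher in every bin than in the bin before. Adgre1 had 10.9, 9.25, 21.9 and 39.7 CPM. Cd163 went the other way, with 7.03, 5.94 and 5.90 CPM in the lower 3 bins and 2.64 (1.75 to 3.82) in the highest. Lyve1 had 9.57, 11.3, 7.47 and 7.83 CPM, and Timd4 had 1.56, 2.06, 0.87 and 0.47 on 8, 18, 5 and 5 UMIs. Folr2 stayed between 11.7 and 15.5 CPM and Cbr2 between 22.3 and 29.2.

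**Figure D4:**
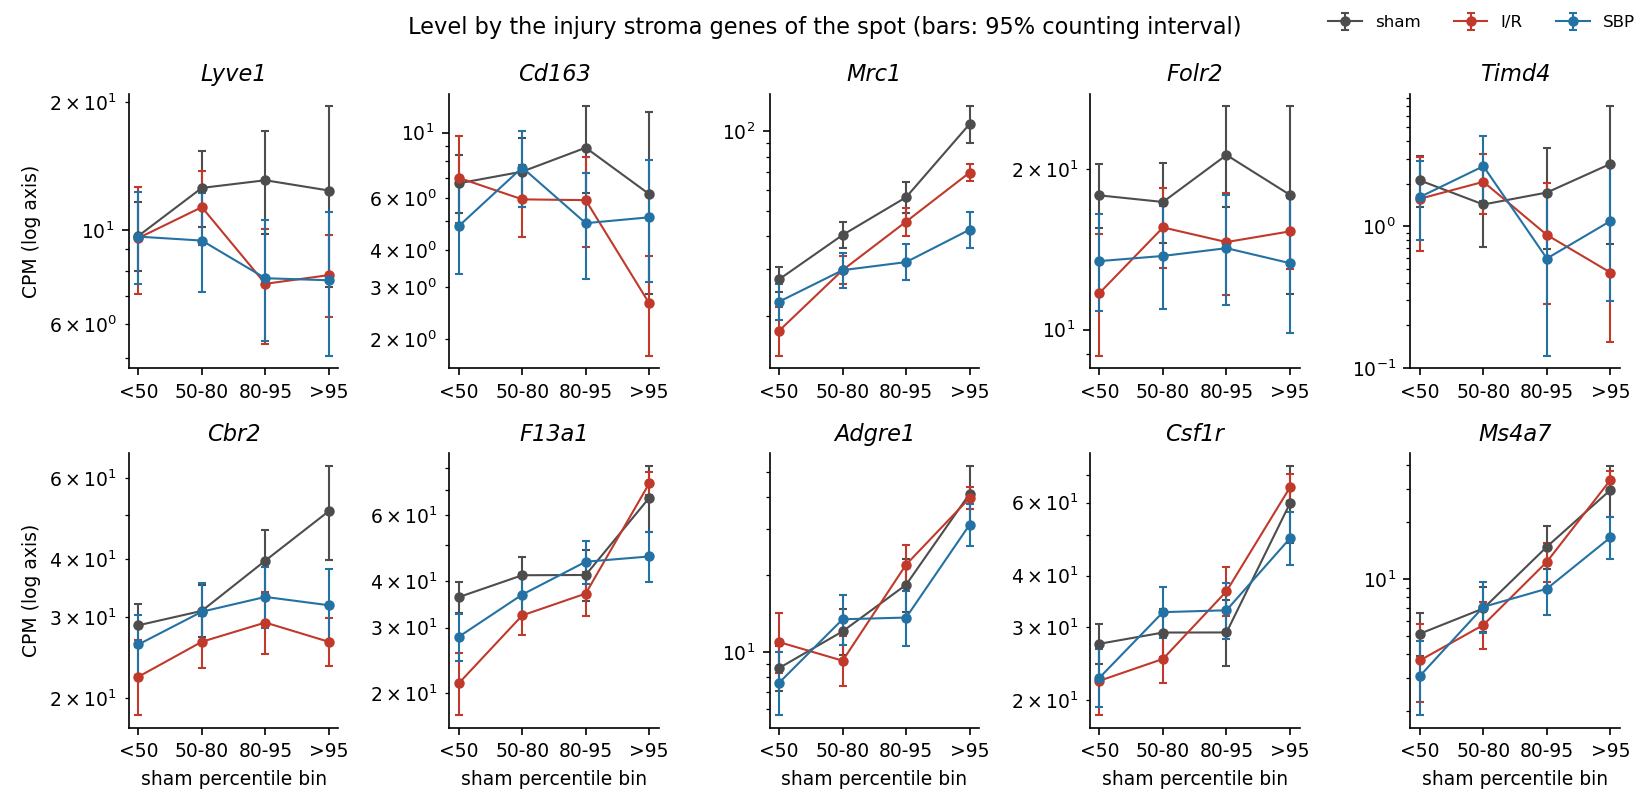
CPM (log axis) of each gene in spots binned by summed UMIs of Timp1, Ccn2, Tnc and Postn per 10000, with bins given as percentiles of sham, in sham, I/R and SBP and with 95% Poisson intervals as bars. In I/R, Ms4a7 went from 3.71 to 33.4 CPM and Cd163 from 7.03 to 2.64 CPM between the lowest and highest bin.

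The sham section, with needle passage but no ligation, was less clear for Cd163 in its 112 highest spots. There Cd163 had 6.19 CPM (2.83 to 11.7) on 9 UMIs against 7.31 in the rest, and Lyve1 12.4 (7.33 to 19.6) against 11.2. Cbr2 was at 50.9 (39.9 to 63.9) against 31.4 CPM, and Folr2 at 17.9 (11.7 to 26.2) against 18.3. The log2 ratios of the highest bin over the rest in sham, I/R and SBP were -0.24 (-1.39 to 0.72), -1.23 (-1.88 to -0.63) and -0.17 (-0.95 to 0.55) for Cd163. They were 0.70, 0.02 and 0.10 for Cbr2, and 2.0, 2.23 and 1.45 for Ms4a7. In the highest bin, Ms4a7 was at 29.6 CPM in sham (21.4 to 39.8), 33.4 after I/R (30.0 to 37.0) and 16.6 with SBP (12.7 to 21.3). Mrc1 was at 107 in sham (90.5 to 125), 69.8 after I/R (64.8 to 75.0) and 42.4 with SBP (36.0 to 49.6). In that bin the shared macrophage genes summed to 2949, 3211 and 1818 CPM and the monocyte genes to 2279, 2747 and 1417 CPM.

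Spots rich in macrophage transcripts also separated the members. This class was added after the data were seen. It took spots above the sham 95th percentile (23.2 per 10000) of the summed UMIs of the 17 shared macrophage genes, none of them a member, and held 112 spots in sham, 513 after I/R and 183 with SBP. Among the 17 was Lyz2, a gene of all myeloid cells with 21028 UMIs after I/R. The class can therefore also hold spots of other myeloid cells. In sham the members ranged from 1.55 on the log2 scale for Timd4 (0.15 to 2.73) to 2.83 for Ms4a7 (2.39 to 3.26). No share of all genes is set beside these values, and a class cut on macrophage genes favours other macrophage genes. That members lay above 0 here is therefore not read as a result about them. In I/R, Ms4a7 was at 3.27 (3.00 to 3.56), Adgre1 at 2.51, F13a1 at 2.33, Csf1r at 2.22 and Mrc1 at 2.0. Lyve1 was at 0.20 (-0.24 to 0.63) and Cd163 at 0.19 (-0.43 to 0.77) in the same spots, and Timd4 at -0.87 on 4 UMIs (-2.83 to 0.63). Lyve1 had 31.1 CPM in the rich spots of sham, 10.1 in those of I/R and 17.9 in those of SBP. Cd163 had 25.5, 5.52 and 17.3 CPM, Folr2 71.4, 25.1 and 37.0, and Cbr2 108, 44.9 and 90.2. F13a1 hardly varied, at 132, 131 and 121 CPM. In SBP, Cd163 was at 1.89 (1.25 to 2.5) and Lyve1 at 1.17 (0.56 to 1.73) over the other spots. The share of spots in this class differed between sections (5.01%, 24.6% and 9.34%), so the class does not hold the same tissue in each.

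**Figure D5:**
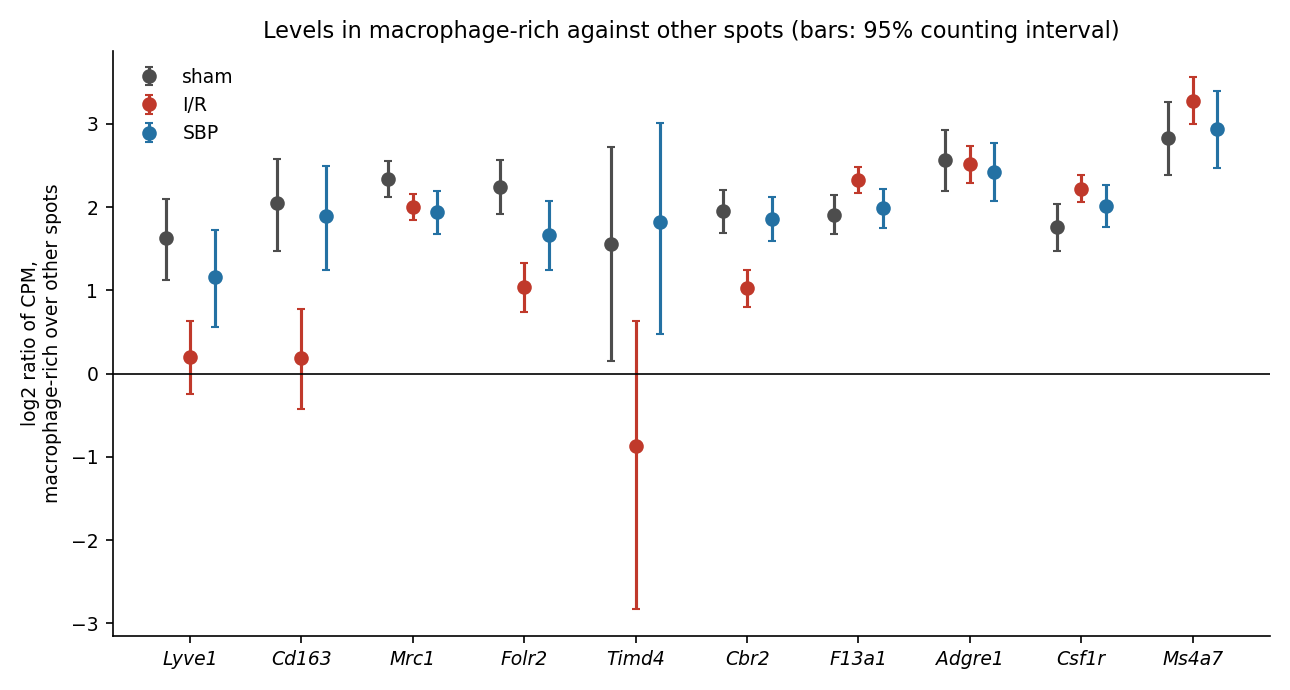
Log2 ratio of CPM in macrophage-rich over other spots for the 10 genes, with 95% conditional binomial intervals as bars, in sham, I/R and SBP. In I/R, Lyve1 and Cd163 lay at 0.20 and 0.19, while Ms4a7 was at 3.27.

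Which transcripts shared spots was examined in the thinned spots. Spots with a Lyve1 UMI (129 in sham, 80 after I/R and 89 with SBP) were higher than the rest in Folr2, by 1.69, 1.15 and 1.48 on the log2 scale, and in Cbr2, by 1.20, 0.95 and 1.61. They were also higher in Ccl21a, a chemokine of lymphatic endothelium, by 1.91 (1.66 to 2.16), 2.23 (1.85 to 2.60) and 1.70 (1.10 to 2.25), and lower in Spp1, a gene of recruited macrophages, by -1.22, -1.06 and -3.04. Spots with a Cd163 UMI (88, 63 and 57) were higher in Lyve1, by 1.77, 1.48 and 1.37, but not in Ccl21a, at -0.27, -2.90 and -0.19. The intervals of these Ccl21a values are not given here, and the spots are few, so their size is uncertain. Ccl21a has near-identical gene copies and its counts were summed over 2 rows. Spots with an Ms4a7 UMI were higher in Spp1 by 2.67, 2.46 and 2.76 and in Ccr2 by 2.35, 2.20 and 1.40, and those with an Mrc1 UMI in Spp1 by 1.66, 1.89 and 1.94. No median or share of all genes is set beside the values of shared spots. They are therefore not read as particular to these pairs of genes.

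Lymphatic and endothelial genes therefore stand beside the Lyve1 and Mrc1 values. Of 7 lymphatic genes, 1 was at least 1.5-fold higher in I/R than in sham and 2 were lower, with a median of -0.40 and a summed level of 129 against 121 CPM. Podoplanin (Pdpn), also made by activated fibroblasts, was at 2.06, the transcription factor Prox1 at -0.59, Ccl21a at -0.70, Mmrn1 at -0.40, Reln at -0.50, Flt4 at 0.07 and Sema3d at 0.21. In SBP over I/R, 4 of 6 were lower and none higher, with a median of -0.79. Only 1 of these genes lay above 0, Prox1 at 0.30 (0.11 to 0.49). In SBP over sham, where Lyve1 was at -0.36 and Mrc1 at -0.43, 3 of 6 were lower and 1 was higher, with a median of -0.91. Ccl21a had 65.3 CPM in sham, 40.1 after I/R and 21 with SBP. None of 6 blood endothelial genes was past that fold in I/R over sham, with a median of -0.0050, or in SBP over I/R, with a median of -0.08. In SBP over sham 1 of the 6 was lower, the growth factor receptor Kdr at -0.59, and the median was -0.07. The part of vessels in the Lyve1 and Mrc1 values was not tested.

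The genes most like the sum of the 7 resident genes across thinned spots were Lyz2, Pf4, C1qb, Apoe, C1qa, C1qc, Ccl6, Tmsb4x, Ftl1 and Actb. Likeness was the mean of the Pearson correlations in the 3 sections, over the 6191 genes that had 200 UMIs or more per section, and ranged from 0.34 for Lyz2 to 0.29 for Actb. These correlations are weak and are a description. Why they are weak was not tested. Of the members outside that sum, Csf1r had rank 59 and Adgre1 rank 142, and Ms4a7 had too few UMIs in SBP to be ranked. Myh6, the heavy chain of cardiomyocyte myosin, had rank 6175 at -0.16. Lyz2, Pf4 and the C1q genes are made by macrophages in general, whereas Tmsb4x, Ftl1 and Actb are made by most cells.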

How the data were processed

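Visium libraries of 3 heart sections, 1 each of sham, I/R and SBP, were analysed. The authors deposited raw UMI counts per gene and spot. Per the labels these came from Space Ranger 1.3.0 with the mm10 mouse reference, and the paper's methods name another version and a human reference, while the gene identifiers in the files are mouse. Of these, 32158 were found in GENCODE M21 (GRCm38).

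Spots with under 200 genes were left out (3 of sham, 1 of I/R, 2 of SBP), and these held 0 UMIs of the 10 genes. Counts were summed over spots and divided by the UMIs of the section or class (CPM). The 95% intervals were exact Poisson for levels, Clopper-Pearson for shares of spots and conditional binomial for ratios, all without variation between animals. PCR and capture are not covered by them. A ratio of at least 1.5-fold with 50 UMIs or more in the samples set side by side was counted as higher or lower. For shares, spots were thinned to 6500 UMIs without replacement. The rule for naming took all 10 members, every monocyte and lymphatic gene, and up to 4 genes with most UMIs of another list. Some genes of the lists are not reported here. Ccl24, Ltc4s, Fcna, Il34, Kdr and genes of other organs were named after their values were seen. The members and lists were chosen with earlier results of these data known. The ratio intervals were tested on simulated Poisson counts. Those counts held counting error only, so that test does not cover spread between spots or animals. Alternatives were UMIs without mitochondrial genes, equal weight per spot, TMM and median-of-ratios factors, other Ankrd1 percentiles, a thinned Ankrd1 count, other thinning depths and draws, and other filters. Tools were Python 3.11.15 with pandas 2.3.3, scipy 1.17.1, numpy 2.4.6 and, for plots, matplotlib 3.10.9.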

Additional observations from a re-analysis of the deposited data

Results flagged for a closer look

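Some ratios had intervals on opposite sides of 0 in classes of spots or in sections that were set side by side. These differences were not tested, since each rests on 1 section per group, and no cause was examined.

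Mrc1 was at -0.53 on the log2 scale for I/R over sham within Ankrd1-high spots and at 0.17 within the other spots. Adgre1 was at -0.50 and 0.96 in the same classes, and the sum of the 10 members at -0.28 and 0.21. The Ankrd1-high spots of sham, 112 in all, enter each value within that class. These signs depended on the division of spots. With the threshold at the sham 90th percentile Adgre1 was at 0.0018 within high spots. With the region set by 4 injury genes, the other spots were at -0.23 for Mrc1, -0.19 for the sum of the 10 members and 0.23 for Adgre1.

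The sum of the 7 resident genes in Ankrd1-high over other spots was at 0.25 in sham, -0.24 after I/R and -0.27 with SBP. With the threshold at the sham 99th percentile, which leaves 23 sham spots, the sham value was -0.78. The sum of the 10 members was at 0.37 in sham and -0.12 in I/R.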

How the results depend on the processing

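All values here are log2 ratios unless called counts, and the causes of the shifts were not tested. No paired analysis was possible because the labels give only 1 section for each condition. Over the whole section 180 of 210 values were counted as unchanged under the alternatives. So were 230 of 264 for Ankrd1-high over other spots, 498 of 532 within the classes, 55 of 120 shares and 2 of 30 per C1q. A value counted as unchanged could still change sign or lose its call. Without mitochondrial UMIs all 30 whole-section values were counted as unchanged. Among them, for SBP over I/R, Lyve1 went from -0.04 to 0.0077. Adgre1 went from -0.63 to -0.57, short of 1.5-fold. Both stayed inside the counting intervals of their main ratios. Shares moved by construction with another thinning depth or without thinning, and 3 of the highest and 2 of the lowest values over 19 further draws also moved.

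For the whole section, the 7 resident genes in I/R over sham (-0.06) were at -0.17 without mitochondrial UMIs, 0.13 with equal weight per spot, -0.28 with TMM and -0.29 with median-of-ratios factors. The 3 general genes (0.62) were at 0.51, 0.96, 0.40 and 0.39. In SBP over I/R, the 7 (-0.20) were at -0.36 with equal weight, -0.051 with TMM and -0.036 with median of ratios, and the 3 (-0.54) at -0.77, -0.39 and -0.38. In SBP over sham the 7 (-0.25) were at -0.33 with TMM and -0.33 with median of ratios. These scalings shifted every I/R over sham ratio by -0.22 (TMM) or -0.24. Members at least 1.5-fold higher in I/R over sham numbered 1 with both, not 2. Those lower numbered 2 with both and without mitochondrial UMIs, not 1, and those lower in SBP over I/R numbered 1 in these settings, not 2. Without the 1% of spots richest in each gene, 1 was lower in SBP over sham. With equal weight per spot, Csf1r also passed 1.5-fold in I/R over sham, at 0.79, and Mrc1 in SBP over I/R, at -0.77.

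With the threshold at the sham 99th percentile, 23 sham spots remained. Ankrd1-high over other spots for the 7 genes was then -0.78 in sham, -0.38 after I/R and -0.49 with SBP, and for the 3 genes -0.16 in I/R and -0.0042 in SBP, with Ms4a7 at -0.0081 in SBP. At the 90th percentile the 3 were at 0.23 in I/R and the 7 at -0.077 in SBP. The 7 were at -0.37 in I/R without mitochondrial UMIs, and the 3 at -0.13 with equal weight. With the region set by 4 injury genes, chosen after seeing the data in place of the planned list, the 7 turned to 0.70 in I/R and 0.26 in SBP and were at 0.86 in sham, the 3 were at 1.47 in sham, 1.52 after I/R and 1.07 with SBP, and Timd4 was at 0.60 in sham.

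Within high spots, the sum of 10 was at 0.15 (99th percentile) in I/R over sham, at -0.40 (equal weight) and -0.45 (injury region) in SBP over I/R, and at -0.20 (99th) in SBP over sham. The 7 genes turned to 0.37 and Cbr2 to 0.98 in I/R over sham at the 99th, Folr2 to 0.95 and the 7 genes to 0.049 in SBP over sham at the 99th, and Timd4 to 0.087 (thinned Ankrd1) and 1.21 (injury) in SBP over I/R. Within other spots, the sum of 10 in I/R over sham was at 0.13 without mitochondrial UMIs, 0.46 with equal weight, 0.13 with thinned Ankrd1 and -0.19 with the injury region, and in SBP over I/R at -0.53 with equal weight and 0.012 with the injury region. With that region, Ms4a7 was at -0.053 and the 7 genes at -0.28 in I/R over sham, and the 7 at 0.041 in SBP over I/R. Per 100 UMIs of Cd68, Aif1, Lgmn and Ctss in place of C1q, I/R over sham turned to -0.39 for Ms4a7, -0.52 for Adgre1, -0.85 for Csf1r and -0.68 for the 3 genes, and was -1.36 for the 7. SBP over I/R turned to 0.38 for Mrc1, 0.33 for Adgre1 and 0.41 for the 3 genes, and SBP over sham to -0.19 for Adgre1, -0.24 for Csf1r and -0.27 for the 3.

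Low counts limit Timd4 (34 to 47 UMIs a section) and Cd163 in high spots (10 to 14 UMIs). Without replicate sections no value has an error between animals.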
